A study of Glycine max with 8 samples.

Results

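In soybean (Glycine max, cultivar Williams 82), 11274 regions of open chromatin were listed reproducibly in leaf and in seed but in neither flower nor root. They were chosen from lists of MNase hypersensitive sites, which are stretches of DNA that micrococcal nuclease releases as short fragments under light digestion. A region counted as reproducible in a tissue where the sites of its libraries shared at least 20 bp. Reproducible regions of the 4 tissues were merged where they overlapped, and a merged region was kept when it held a leaf and a seed region and none of flower or root. The set makes up 13.7% of 82398 merged regions and 36.2% of the 31182 that hold both leaf and seed. The site lists themselves chose the set, so its counts, widths, overlaps and scores are given as descriptions, and tests are kept to position along the chromosomes, which the choice did not use, and to distance from regions of leaf, flower and seed, a class cut from the same lists.

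Each tissue has 2 libraries, and all 8 come from the same cultivar. Leaf libraries were listed with 0.5 g of powder and those of flower, seed and root with 1 g. For leaf, the amount of powder and the tissue therefore cannot be told apart. All 8 were listed with 1% formaldehyde for 10 min, and with MNase at 0.01, 0.03 and 0.1 units for 10 min. The same fragment limit of 100 bp was listed for all 8. So were 12 h of light at 28 °C and 12 h of dark at 25 °C. Leaf libraries were made from trifoliate leaves of seedlings at stage V2 and seed libraries from plants at stage R4, as the seed records state, whereas the records of the other tissues give R1 for the seed plants. Flower libraries came from plants at stage R1 and root libraries from seedlings at stage V2. Leaf, seed and root plants grew in a greenhouse and flower plants in a field, so for flower the place of growth and the tissue cannot be told apart. The listed light and temperatures may therefore not hold for flower. Whether a tissue's libraries were prepared from different plants is not stated in the labels, so their spread may be technical.

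Nuclease-sensitive stretches in plant genomes commonly lie at promoters and at more distant regulatory elements, where bound proteins or missing nucleosomes leave DNA exposed. Leaves are the main photosynthetic organs, and seeds at the pod stages hold growing embryos that build up storage reserves. Flowers carry the reproductive organs, and roots take up water and nutrients. Absence from a list is not evidence of closed chromatin, because neither the threshold at which sites were called nor the sequencing depth is known.

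The lists differ in length and form. There were 75471 and 74278 leaf sites and 82798 and 63243 seed sites. The flower lists held 50078 and 62094 sites, and those of root 15185 and 18957. The root lists reach down to sites of 49 bp and the others to 100 bp. Chromosomes were spanned over 948.9 Mb, and the leaf-and-seed-only regions covered 2.59 Mb of it. They held 18.7% of the 61056 reproducible leaf regions and 24.2% of the 47979 reproducible seed regions. In the single lists they took in 15.1% of the leaf 1 and 15.4% of the leaf 2 sites. Of the seed 1 sites they took in 14.0%, and of the seed 2 sites 18.3%.

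The count moved with single libraries, most of all without seed 2 and without flower 1. It was 6190 when flower 2 alone defined the flower regions, without flower 1, and 9277 without flower 2. Without seed 2 it was 18714, and without seed 1 13355. Leaving out leaf 1 or leaf 2 gave 13202 and 13765. Without root 1 and without root 2 it was 10609 and 10831, and with no root list at all 11534, so the root lists moved it little. Just inside the 20 bp threshold stood 154 regions whose shorter leaf or seed overlap spanned 20 to 39 bp, with a median merged width of 168.5 bp. Just outside stood 77 regions with such overlaps of 1 to 19 bp, with a median width of 165 bp.

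Most of these regions were not empty in flower. A site of flower 1 was met by 17.7% of them, against 13.3% of all merged regions without a reproducible flower region. A site of flower 2 was met by 45.1%, against 29.3% of those merged regions. At least 1 flower list had a site in 6830 regions, or 60.6%, against 41.6%. The flower lists were used to choose the set and the background includes it, so nothing is read from these differences. In regions of leaf only, 42.9% met at least 1 flower list, and in regions of seed only 27.4%.

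Single-list sites from the missing tissue also occurred in the other pairings. Among the 9602 regions open in leaf and flower only, 70.0% met seed 1 and 9.84% met seed 2. In regions of leaf only the shares were 41.5% and 11.9%, and in regions of flower only 32.6% and 10.7%. Among the 1523 regions open in flower and seed only, 39.1% met leaf 1 and 25.7% met leaf 2. For these leaf lists the shares were 21.4% and 16.2% in regions of seed only, and 25.4% and 19.8% in regions of flower only. In flower, seed and leaf alike, the longer list of the missing tissue gave the larger share.

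Sites in both flower lists, placed so that no 20 bp were shared between them, occurred in 251 leaf-and-seed-only regions. A further 1746 held a site of flower 1 alone and 4833 a site of flower 2 alone. The flower sites at these regions ranked low in their own lists, with a median score at percentile 33.7 in flower 1 and 41.5 in flower 2. By rule, the set holds no reproducible flower region. In flower 1 the medians were 34.1 at leaf-only and 30.4 at seed-only regions, and in flower 2 they were 36.5 and 31.8. The low rank was thus shared with these classes. Flower sites at the leaf-and-seed-only regions had median widths of 139 and 161 bp, against 167 and 172 bp over the whole flower lists. The score is the authors' own number for each site, deposited with no definition that was used here, and it serves only to rank sites within a list.

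Root left little trace. Root 1 met 3.93% of the leaf-and-seed-only regions, against 4.64% of all merged regions without a reproducible root region. Root 2 met 5.90%, against 5.85%. Both shares lie near the background and are no result about these regions. No flower or root list had a site in 4110 regions, which is 36.5% of the set. This share stands without that of other merged regions, so it is no result about the set.

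**Figure D1:**
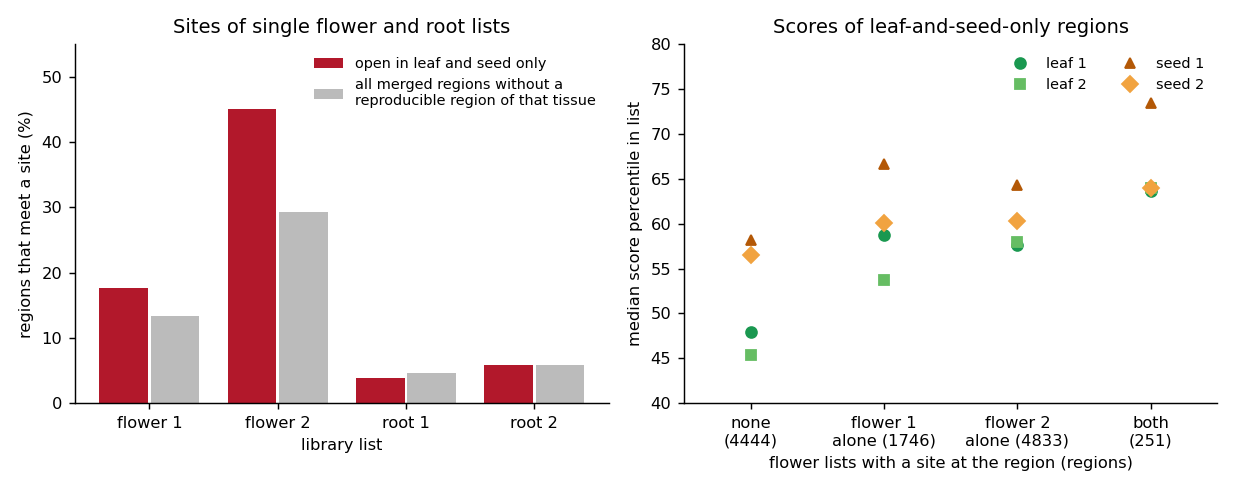
Left, the share of regions (%) that meet a site of each flower and root list, for regions open in leaf and seed only and for all merged regions without a reproducible region of that tissue. Right, the median score percentile in the leaf and seed lists (axis from 40 to 80), with the highest site of each region taken. Leaf-and-seed-only regions are split into those with no flower site, a site of 1 flower list, or both. The 4 medians are lowest where no flower list had a site.

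Leaf and seed scores went with the presence of flower sites. Where a list had several sites in a region, the highest score was taken. In the 4444 regions with no flower site, the median score percentile was 47.9 in leaf 1 and 45.4 in leaf 2. In the 6830 regions with at least 1 flower site it was 58.2 and 57.2. The seed medians were 58.1 and 56.5 without a flower site, against 65.3 and 60.4 with one. All 4 leaf and seed lists showed this order, and regions without a flower site were also narrower, with a median merged width of 198 bp against 223 bp. Depth is unknown for every list, and the part of depth or of region width in this pattern was not tested.

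Inside a region, leaf and seed usually contributed a single stretch each. Of the 11274 regions, 10786 (95.7%) held exactly 1 reproducible leaf region and 1 reproducible seed region. Leaf was split into several stretches in 161 regions and seed in 338, with at most 3 in a region. In the 10786, the leaf stretch had a median width of 171 bp and the seed stretch 153 bp, and they shared a median of 118 bp. The shared part made up a median of 59.5% of the merged width, against 62.8% of the span of leaf and seed in the 17033 such regions of leaf, flower and seed.

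The leaf and seed stretches were often offset from each other. They were staggered, each reaching past the other on a different side, in 5839 regions (54.1%). Seed lay wholly within a wider leaf stretch in 2970 (27.5%), and leaf within a wider seed stretch in 1977 (18.3%). The midpoints were a median of 30 bp apart, and 43.6% of them lay within 25 bp. In 182 regions the stretches shared under 20 bp, so that the tissues met only at their edges.

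The leaf stretch was the wider in 59.6% of the leaf-and-seed-only regions, and in 73.9% of the regions of leaf, flower and seed. The lists differ in width in advance, with medians over all sites of 201 and 190 bp in leaf and 183 and 164 bp in seed. At leaf-and-seed-only regions the medians were 212 bp in leaf 1 and 197 bp in leaf 2, against 212 bp in seed 1 and 180 bp in seed 2. Leaf 1 and seed 1 thus had the same median there, although their lists as a whole did not. The middle 50% of the widths ran from 166 to 275 bp in leaf 1 and 155 to 258 bp in leaf 2. It ran from 165 to 269 bp in seed 1 and 140 to 233 bp in seed 2. The ranges of leaf and seed thus overlapped, almost completely for leaf 1 and seed 1 and in part for leaf 1 and seed 2.

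In some regions the leaf and seed site widths did not overlap. In 10458 regions each of the 4 leaf and seed lists had exactly 1 site. Both leaf sites were wider than both seed sites in 2618 of these (25.0%), against 30.8% of all such merged regions that hold leaf and seed. Both seed sites were wider than both leaf sites in 2096 (20.04%), against 16.1%. The background includes the set, and the shares that unrelated widths would give were not worked out. In the remaining regions the widths of leaf and seed overlapped. The mean leaf width minus the mean seed width had a median of 6 bp, and ran from -83.0 bp at the 10th percentile to 107.5 bp at the 90th.

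Across these 10458 regions the widths in leaf 1 and leaf 2 had a rank correlation of 0.57, and those in seed 1 and seed 2 of 0.33. Between tissues it was 0.29 for leaf 1 and seed 1, 0.16 for leaf 1 and seed 2, 0.27 for leaf 2 and seed 1, and 0.17 for leaf 2 and seed 2. The difference between leaf and seed width in the libraries numbered 1 had a rank correlation of 0.32 with that in the libraries numbered 2. Regions are not replicates and each correlation runs over the same sites, so these values describe the lists. The leaf pair had the highest of the 6 values, and the value of the seed pair was close to those of seed 1 with the leaf lists.

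**Figure D2:**
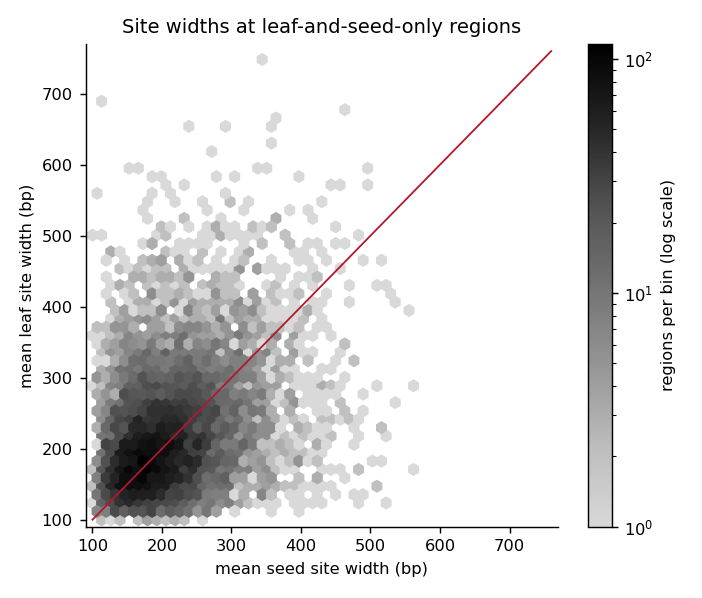
Mean leaf site width against mean seed site width (bp) at the 10458 leaf-and-seed-only regions with 1 site in each leaf and seed list; shading counts regions per bin on a log scale and the line marks equal widths. Most regions crowd near the line at about the median widths, and 2618 had both leaf sites wider and 2096 both seed sites wider.

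At the largest width differences the wider tissue's mean width was several times the narrower one's. On chromosome 7 at 41954964 to 41955510, the leaf sites spanned 696 and 678 bp and the seed sites 112 and 110 bp. At 1592558 to 1592857 on chromosome 18 they spanned 434 and 755 bp in leaf, against 169 and 146 bp in seed. On chromosome 11 at 5091133 to 5091384 the leaf widths were 241 and 877 bp, and those of seed 115 and 110 bp. In this last region leaf 2 decides the difference, whereas at the first the leaf libraries gave nearly the same width. Each of the 3 met a flower list: flower 2 sites of 142 and 105 bp on chromosome 7, a flower 1 site of 104 bp on chromosome 18 and a flower 2 site of 356 bp on chromosome 11.

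Seed was the wider tissue by most on chromosome 17 at 23992275 to 23992741, where leaf sites spanned 120 and 117 bp and seed sites 501 and 550 bp. No flower or root list had a site there, and the nearest region of leaf, flower and seed was 64.7 kb away. On chromosome 1 at 4374482 to 4374933 the widths were 161 and 173 bp in leaf, against 672 and 452 bp in seed, with a flower 2 site of 342 bp and a root 2 site of 75 bp. On chromosome 7 at 29461 to 29911, close to the chromosome end, they were 159 and 131 bp in leaf and 457 and 560 bp in seed, with a flower 2 site of 111 bp. Leaf and seed widths did not overlap in any of these 3 regions, which were picked for a large difference between mean widths.

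Scores placed the set slightly above the middle of the leaf and seed lists. The median percentile was 53.8 in leaf 1 and 52.3 in leaf 2. Seed 1 gave 61.6 and seed 2 gave 57.9. Since the lists differ in length, these ranks say nothing of a change between leaf and seed. Within each list the set can be placed among the other classes of region. In leaf 1, sites of the leaf-and-flower-only regions had a median percentile of 64.3, those of leaf only 39.4 and those of leaf, flower and seed 79.9. In seed 1 the medians were 58.7 for flower and seed only, 44.8 for seed only and 77.3 for leaf, flower and seed.

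The second leaf and seed lists gave the same order. In leaf 2 the medians were 61.9 for leaf and flower only, 38.5 for leaf only and 78.5 for leaf, flower and seed. In seed 2 they were 53.5 for flower and seed only, 47.4 for seed only and 63.7 for leaf, flower and seed. Leaf-and-seed-only sites therefore stood above single-tissue sites and below sites shared by 3 tissues in 4 of 4 lists. The classes were cut from the same lists, which sets part of this order. Few of the sites were at the top of the leaf lists, with 4.12% and 4.91% over the 90th percentile, and 10.6% and 11.4% of the seed sites ranked that high.

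**Figure D3:**
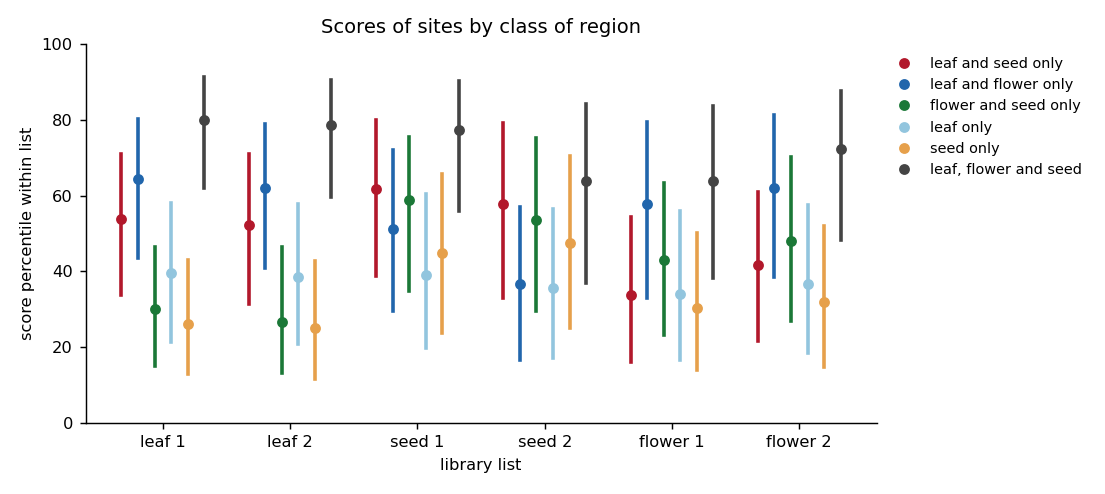
Score percentile of sites within each scored list (points: medians, bars: middle 50% of the sites), by the class of merged region they lie in. In the leaf and seed lists the leaf-and-seed-only sites lie between the single-tissue classes and the regions of leaf, flower and seed.

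The 5 regions with the highest mean score percentile over the 4 lists had merged widths of 174 to 365 bp, against a median of 213 bp over the set. The first lay on chromosome 14 at 1710130 to 1710327, spanned 198 bp and ranked at percentile 99.9 in leaf 1, 99.9 in leaf 2, 99.9 in seed 1 and 99.7 in seed 2. It was not empty elsewhere: flower 2 had a site of 113 bp at percentile 6.94 there and root 1 a site of 103 bp. The next, on chromosome 10 at 6784425 to 6784598, spanned 174 bp, ranked at percentiles 99.8 and 99.9 in leaf and 99.8 and 99.0 in seed, and met a flower 2 site at percentile 74.3. The region on chromosome 5 at 33406061 to 33406425 spanned 365 bp and met no flower or root site, with percentiles of 99.7 and 98.2 in leaf and 99.4 and 99.5 in seed.

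The remaining regions of this group lay at 51485866 to 51486135 on chromosome 15 and at 49095991 to 49096335 on chromosome 1. The region on chromosome 15 ranked at percentiles 99.8 and 99.7 in leaf, and 98.9 and 98.3 in seed. The region on chromosome 1 ranked at 99.2 and 99.7 in leaf, and 99.8 and 97.5 in seed. Both met a single site of flower 2, at percentiles 29.8 and 77.5 of that list, and the region on chromosome 1 also met a root 1 site of 74 bp. Of the 5 regions, 4 met a site of flower 2 and none met a site of flower 1.

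Length picked out other regions. The longest region, 898 bp on chromosome 8 at 39426151 to 39427048, had a single leaf site of 900 bp in leaf 1 and 822 bp in leaf 2 and a pair of sites in each seed list, of 317 and 294 bp in seed 1 and 315 and 148 bp in seed 2. No flower or root list had a site within it, and the nearest reproducible flower region was 17.8 kb away. The next, 803 bp on chromosome 18 at 21220219 to 21221021, had leaf sites of 879 and 822 bp, seed sites of 219 and 527 bp in seed 1 and of 344 and 189 bp in seed 2, and a flower 2 site of 279 bp. At both, the leaf libraries held 1 continuous site where the seed libraries held a pair.

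On chromosome 2 at 7591070 to 7591853, a region of 784 bp, leaf was split in both libraries. The sites spanned 144 and 621 bp in leaf 1 and 176 and 497 bp in leaf 2. Seed 1 held a single site of 774 bp there and seed 2 sites of 368 and 181 bp. On chromosome 7 at 31241531 to 31242283, 753 bp, leaf was split again, into 209 and 460 bp in leaf 1 and 115 and 493 bp in leaf 2, while the seed lists held single sites of 753 and 761 bp. Neither of these regions met a flower or root site. The region on chromosome 1 at 49945613 to 49946342, 730 bp, differed in that both flower lists had sites there, of 116 bp in flower 1 and of 178 and 174 bp in flower 2. Its score stood at percentile 91.0 in leaf 1 and 28.5 in seed 2, so it was a weak site of the second seed list.

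Position along the chromosomes was not used to choose the set. The leaf-and-seed-only regions were 2.86 times as dense in the outer 20% at each chromosome end as in the inner part, with 7392 outer and 3882 inner regions. The ratio was 3.94 for regions of leaf and flower only, 2.68 for flower and seed only, 3.71 for leaf only, 2.30 for seed only and 3.18 for leaf, flower and seed. The set therefore lay between the leaf-only and the seed-only regions. The ratio was 3.20 and 3.13 over all leaf sites, 2.85 and 2.62 over all seed sites, and 3.22 and 3.30 over all flower sites, and the part that this difference between whole lists has in the contrasts was not tested.

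Per chromosome, the log2 ratio of outer to inner density averaged 1.60 ± 0.65 in the leaf-and-seed-only regions, against 2.21 ± 0.87 in regions of leaf and flower only (SD, n = 20 chromosomes). The difference was -0.61 ± 0.38 (SD), lower on 20 of 20 chromosomes (two-sided sign-flip permutation test over chromosomes, p = 1e-05, the smallest that 100000 resamples give; Benjamini-Hochberg adjusted p = 2.25e-05 over 9 contrasts). With the outer 10% in place of 20% it was -0.34, lower on 19 of 20. Against leaf only the difference was -0.47 ± 0.25, lower on 19 of 20 chromosomes (permutation, adjusted p = 2.25e-05). Against seed only it was 0.38 ± 0.23, higher on 19 of 20 (permutation, adjusted p = 3.60e-05). The set thus crowded to the ends less than leaf-only regions and more than seed-only regions.

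The contrast with regions of leaf, flower and seed was smaller, at -0.19 ± 0.25 and lower on 16 of 20 chromosomes (permutation, adjusted p = 0.00517). With the upper 50% of each scored list by score it was -0.13 and missed the threshold (permutation, adjusted p = 0.0765). Against flower and seed only the difference was 0.16 ± 0.43, higher on 10 of 20 chromosomes, which did not pass the test (permutation, adjusted p = 0.131). Chromosomes are not replicate plants, and these p-values measure how evenly a difference held along the genome of these 8 libraries.

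The gap to the leaf-and-flower-only regions was widest away from the ends. In the outermost 10% of the chromosome span at either end there were 96.0 and 97.3 regions of leaf and flower only per 100 of leaf and seed only. In the bins between 30% and 70% of the span there were 53.2 to 59.2 per 100. Of the regions that hold leaf and seed, the share without a reproducible flower or root region ran from 33.8% to 39.2% over the 10 bins. It was 35.7% and 34.9% in the outermost bins at the start of the span, 37.7% and 35.3% in those at its end, and no trend was tested. The middle of the chromosomes, from 40% to 60% of the span, held 790 of the leaf-and-seed-only regions (7.01%).

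Chromosome 13 stood apart. It held 758 leaf-and-seed-only regions, 16.5 per Mb and the highest density of the 20 chromosomes, and 512 of these lay in the inner part. Its ratio of outer to inner density was 0.721, against 1.02 for leaf and flower only and 0.769 for leaf, flower and seed. On the other 19 chromosomes the ratio of the set ran from 1.85 on chromosome 8 to 5.82 on chromosome 4. The lowest densities were 9.75 per Mb on chromosome 1 and 9.76 on chromosome 15. As a share of all merged regions the set varied less, from 12.4% on chromosome 6 to 15.3% on chromosome 16. On chromosome 13 it was 13.1%, against 13.7% over the genome, so the high density there was shared with merged regions as a whole.

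Regions in the outer and inner parts were alike in width and in traces of flower. The median merged width was 213 bp in the outer and 215 bp in the inner part, and 61.6% of the outer and 58.7% of the inner regions met at least 1 flower site. The median score percentile in seed 2 was 57.8 in the outer and 60.6 in the inner part, and 65.9 in the middle of the chromosomes. In leaf 1 it was 55.1 in the outer and 52.5 in the inner part, the opposite direction. These differences are small against the spread of scores within the set and were not tested.

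The set lay farther from regions of leaf, flower and seed than leaf-and-flower-only and leaf-only regions did. Those regions come from the same lists and merging as the set, so distance to them is not independent of how the set was chosen. The median distance to the nearest region of leaf, flower and seed was 9.48 kb, against 7.59 kb for leaf and flower only, 9.30 kb for flower and seed only, 7.93 kb for leaf only and 10.2 kb for seed only. Of the leaf-and-seed-only regions, 9.65% lay within 1 kb of such a region, 51.5% within 10 kb and 4.74% beyond 100 kb. In the outer part the median was 8.13 kb for the set, against 7.13 kb for leaf and flower only, and in the inner part 13.9 kb against 9.53 kb. The difference was thus present in both parts and was larger in the inner one.

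On the log2 scale of the median distance per chromosome, the set exceeded leaf and flower only by 0.32 ± 0.18 (SD), on 19 of 20 chromosomes (sign-flip permutation test, adjusted p = 2.25e-05). It exceeded leaf only by 0.25 ± 0.18, also on 19 of 20 (permutation, adjusted p = 2.25e-05). Against seed only it was lower by 0.11 ± 0.18, on 14 of 20 (difference -0.11, permutation, adjusted p = 0.0168). This last call was lost without flower 1 (-0.099, permutation, adjusted p = 0.102) and when any flower or root site removed a region (-0.078, adjusted p = 0.191). Against flower and seed only the difference of 0.075 ± 0.26 did not pass (permutation, adjusted p = 0.213), and without leaf 1 it was 0.18 and passed (adjusted p = 0.0447). All these classes were cut from the same lists, so the p-values only measure how evenly a difference held over the chromosomes.

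**Figure D4:**
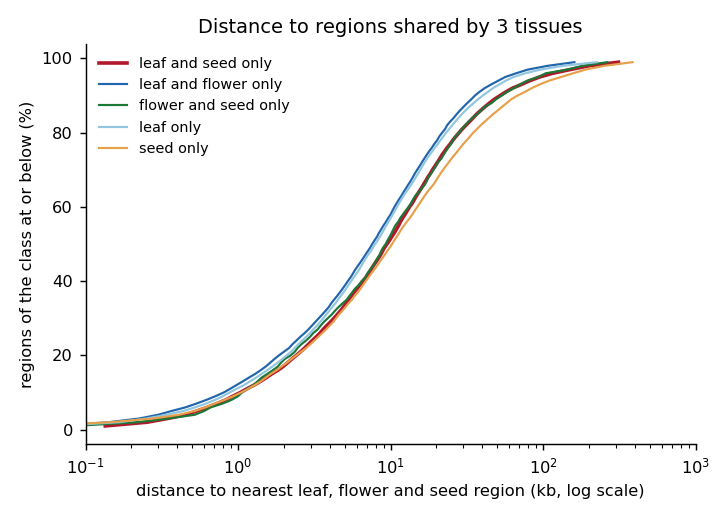
Cumulative share of regions (%) by distance to the nearest region of leaf, flower and seed (kb, log scale), by class. The leaf-and-seed-only curve (median 9.48 kb) runs to the right of leaf and flower only (7.59 kb) and leaf only (7.93 kb).

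The nearest reproducible flower region was a median of 4.67 kb from a region of the set. Within 500 bp of a reproducible flower region lay 8.49% of the set, and within 100 bp 1.57%. These values stand without those of other classes, so they are no result about the set. The nearest reproducible root region was a median of 162.4 kb away, on a root set of far fewer regions.

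Neighbours of the set along the chromosome were drawn from the classes nearly in proportion to their numbers. Among 22543 neighbouring merged regions of leaf-and-seed-only regions, 14.9% were of the same class, against 13.7% of all neighbouring regions. Within 1 kb, 14.4% of 5308 neighbours were of the same class, against 12.3%. Leaf-only regions made up 29.6% of the neighbours within 1 kb, against 26.5%, and leaf-and-flower-only regions 11.2%, against 12.2%. These shares are given without a test.

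Most regions of the set had no other member close by, with merged regions of other classes left out of the count. Neighbouring members were a median of 34.6 kb apart, and 8579 had no other member within 5 kb. There were 1033 pairs, 165 groups of 3 and 32 larger groups joined by gaps under 5 kb. The largest, on chromosome 4 at 3365444 to 3371849, held 6 members in 6.41 kb. Groups of 5 lay on chromosome 5 at 6969793 to 6980697, on chromosome 6 at 2352320 to 2358240, on chromosome 10 at 46680846 to 46692060 and on chromosome 18 at 3648737 to 3663994. Between the members of the groups on chromosomes 4, 5 and 10 there was no region of leaf, flower and seed. Other merged regions did lie between them, 5 on chromosome 4, 2 on chromosome 5 and 1 on chromosome 10.

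Windows of 1 Mb held a median of 9 regions of the set, and 55 of 956 windows held none. The window with most, 41, lay on chromosome 16 and starts at 1000001. The next, with 39 each, lay on chromosome 7 from 4000001 and on chromosome 10 from 47000001. The set made up 18.2%, 18.3% and 17.2% of the merged regions in these windows, against 13.7% in the genome, and the windows were picked for their counts.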

How the data were processed

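MNase hypersensitive sites were mapped in 8 soybean libraries, 2 each of leaf, flower, seed and root. Per the submitters' processing notes, the tools were Trimmomatic 0.36, a read trimmer, and BWA 0.7.15-r1140, an aligner; site caller, threshold and genome build: not given in the sources used here. A list of sites per library was deposited by the authors, with start and end in base pairs and, for leaf, flower and seed, a score per site. Read depth is unknown, and the number of sites limits precision. Duplicate lines were dropped (479 in root 1, 649 in root 2). Starts were taken to count from 0 and are printed counting from 1.

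Regions met when they shared 1 bp. Class contrasts over 20 chromosomes used sign-flip permutation tests (100000 resamples) in Python 3.11.15 with numpy 2.4.6 and pandas 2.3.3. For ratios 0.5 was added to each count, and to distances 1 bp. The scripts were tested on simulated lists. The rule for named regions took the 5 longest, the 5 best ranked by mean score percentile, the 3 with the largest width difference each way, and the fullest windows and groups, with ties broken by position. Members, lists and tests were chosen with earlier results of these data known. No genome sequence of the build was used, so no gene names or bases are given and the planned gene lists were not used.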

Additional observations from a re-analysis of the deposited data

How the results depend on the processing

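The number of regions moved most with the lists: 4110 when any flower or root site removed a region, 5383 with the upper 50% of each scored list by score, which met 2268 of the 11274 regions, and 5471 with equal numbers of sites in the scored lists. Leaving out a library gave 6190 to 18714 regions. Fewer lists entering a tissue, or stricter ones, change by construction which sites can include or exclude a region.

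Of the contrasts in outer to inner density, those with leaf and flower only, leaf only and seed only kept direction and threshold in all 20 settings tried, including without chromosome 13, a setting chosen after the data were seen. The contrast with leaf, flower and seed was -0.13 with the upper 50% of each list. The contrast with flower and seed only, which did not pass, turned to -0.022 with an overlap of 50% of each site. For distance, the contrasts with leaf and flower only and with leaf only kept direction and threshold in all 19 settings. The contrast with flower and seed only was -0.18 with the upper 50% of each list, -0.021 with equal numbers of sites, and from -0.015 to 0.18 with a library left out. The contrast with seed only was -0.078 when any flower or root site removed a region and -0.15 to -0.077 with a library left out, and kept its call at -0.22 with the upper 50% of each list and -0.17 with equal numbers of sites. The cause was not tested. No paired analysis was possible because no test compares libraries, so the replicate numbers enter no fit; the contrasts pair classes of regions within a chromosome, not libraries.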
